A study of Mus musculus with 9 samples.

Results

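The Myc, Mycn and Max network was measured in sorted mouse cells as 8 genes: Myc, Mycn, Max, Mxd1, Mxd3, Mxd4, Mxi1 and Mnt. They were taken by name, as every probe set of the array whose platform annotation gives a member as its only gene symbol. This gave 19 of the 34945 probe sets with 1 symbol, and 8 of 18161 genes. The study asked how excess NOTCH1 acts in leukemia of T cell precursors (T-ALL) and outside malignancy. It holds 9 Affymetrix expression arrays in 3 groups of 3 samples, labelled Control, Abnormal non-malignant and NIC Tumor. The labels give no strain, age, promoter, transgene or sorted population for any group, and they do not spell out NIC. Nor do they tie samples to animals, and the p-values therefore measure the spread among these samples, which may be technical.

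Myc and its paralog Mycn are basic helix-loop-helix leucine zipper proteins that drive growth, ribosome production and cell division. They bind DNA only as dimers with Max, at the E-box CACGTG. The Mxd proteins, Mxi1 and Mnt also pair with Max, occupy the same sites and repress them by recruiting Sin3 and histone deacetylases. In T cell precursors NOTCH1 is known to switch on Myc directly, and most T-ALL depends on Myc activity.

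All 8 genes passed the filter on dim probe sets, and the brightest probe set of each exceeded the 40th percentile of all values on every one of the 9 arrays. Array medians lay between 5.67 and 5.77 on the deposited log2 scale. Non-malignant arrays 2 and 3 differed from each other by an SD of only 0.16 over probe sets, against 0.35 to 0.97 for all other pairs. NIC Tumor 1 differed less from the non-malignant arrays (SD 0.42 to 0.45) than from the other tumors (0.57 to 0.77). The values of NIC Tumor 3 varied least over probe sets (SD 1.97, against 2.12 to 2.19 elsewhere). Notch1 read 9.81, 10 and 10.34 in controls, 12.88, 12.97 and 12.87 in the non-malignant samples and 12.92, 9 and 10.81 in tumors, so NIC Tumor 2 lay below all controls. Whether its probe set reads an introduced NOTCH1 sequence is not given in the sources used here. Control 2 alone carried signal of the Y-linked gene Eif2s3y (8.69, at most 4.18 elsewhere). The T cell markers Cd3e, Cd3g, Cd3d, Thy1, Cd2, Cd5 and Lat were above that percentile on every array. In these bulk samples, fewer cells of a type and less RNA per cell cannot be told apart.

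The E-box is the site that both arms of the network share, so the promoters of the members and of known Myc-raised genes were searched for it. The RefSeq promoters used span 250 bases before to 50 bases after the gene start (build GRCm38.p6). CACGTG reads the same on both strands. It occurred in 7.15% of the 32851 promoters and in 1183 of the 10707 tested genes that matched a promoter. Of the 7 members matched, Max, Mxd4 and Mnt held it. Myc was the member without a matched promoter, so its promoter was not searched. Of the 22 matched Myc-raised genes, 7 did: Cdk4, Ldha, Eif4e, Eif4a1, Nme1, Hspd1 and Apex1. A match is only a stretch of letters, and these shares are not adjusted for base composition. The member promoters and the E-box promoters of 5 Myc-raised genes that rose in the tumors are printed 5′ to 3′, with the E-box in capitals.
Max (chr12:76962246-76962275, minus strand): ctaccccggcgcggtgagcccggtCACGTG
Mxd4 (chr5:34187897-34187956, minus strand): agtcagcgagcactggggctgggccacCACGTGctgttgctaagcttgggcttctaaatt
Mnt (chr11:74830774-74830833, plus strand): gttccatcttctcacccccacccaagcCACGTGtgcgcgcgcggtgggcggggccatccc
Cdk4 (chr10:127063355-127063534, plus strand): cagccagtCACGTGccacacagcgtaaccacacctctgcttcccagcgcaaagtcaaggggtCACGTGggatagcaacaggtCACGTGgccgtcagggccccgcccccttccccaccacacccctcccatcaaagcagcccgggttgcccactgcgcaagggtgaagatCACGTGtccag
Ldha (chr7:46845644-46845773, plus strand): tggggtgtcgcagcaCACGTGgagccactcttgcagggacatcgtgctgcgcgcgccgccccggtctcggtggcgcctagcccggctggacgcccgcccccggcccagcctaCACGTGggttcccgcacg
Hspd1 (chr1:55088291-55088350, minus strand): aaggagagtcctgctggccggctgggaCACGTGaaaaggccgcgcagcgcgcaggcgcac
Nme1 (chr11:93968026-93968077, minus strand): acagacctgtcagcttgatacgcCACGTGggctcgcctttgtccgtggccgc
Apex1 (chr14:50924925-50924954, plus strand): CACGTGggggcggagccctcgaatCACGTG
The Cdk4 promoter held 4 E-boxes within 180 bases upstream of the start. The Max E-box spanned the gene start itself.

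Mycn was far higher in non-malignant samples and tumors than in controls. Mycn encodes the Myc paralog that is best known from the embryo and neuroblastoma. On its brightest probe set (1425923_at) controls 1 to 3 read 8.2, 9.32 and 7.9. The non-malignant arrays read 13.27, 13.7 and 13.73, and the tumors 12.68, 13.76 and 13.14. Every array of both groups stood above every control, and the 2 groups overlapped each other. Mycn rose by 5.09 ± 0.37 (log2, SE) in the non-malignant samples, a 34.1-fold difference (limma adjusted p = 0.0001). It rose by 4.72 ± 0.37 in the tumors, 26.3-fold (adjusted p = 0.000197). Between tumors and non-malignant samples it differed by −0.38, with a 95% interval from −1.21 to 0.46 (adjusted p = 0.533). Control 2 was the highest control, and without it the differences from controls were 5.52 and 5.14. With non-malignant arrays 2 and 3 averaged as 1 sample the rise was 5.02 (adjusted p = 0.00134).

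The other Mycn probe sets did not show this rise. Probe set 1417155_at averaged 5.51 in controls, 4.77 in the non-malignant samples and 4.83 in tumors, and exceeded the 40th percentile on the 3 controls only. It read 5.22, 5.44 and 5.86 there and at most 5.08 elsewhere, without overlap. Against controls the differences were −0.74 and −0.68 (limma adjusted p = 0.159 and 0.0746 over all probe sets). This probe set passed the filter only through the controls, so the lack of overlap and these p-values are no evidence of a fall. Probe set 1425922_a_at averaged 4.57, 4.33 and 5.12 and was above the 40th percentile on 1 array. Both lie near or under that percentile, which was the filter on dim probe sets. Against controls 1425922_a_at differed by −0.24 in non-malignant samples and by 0.55 in tumors, and was not tested. With the mean of all 3 probe sets as the gene level, Mycn stood 1.37 and 1.53 above controls (adjusted p = 0.0014 and 0.00079). That mean includes the bright probe set, so it is no separate support for the rise. The rise and its size thus rest on 1 probe set.

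Myc, the founding member, was lowest in controls, higher in the non-malignant samples and highest in tumors. It is represented by 1 probe set (1424942_a_at). Controls 1 to 3 read 7.43, 6.9 and 7.12, the non-malignant arrays 8.34, 8.27 and 8.1, and the tumors 8.81, 9.72 and 9.93. The 3 groups did not overlap at all, and NIC Tumor 1 was the lowest tumor. Group means were 7.15 ± 0.27, 8.24 ± 0.12 and 9.49 ± 0.6 (SD, n = 3 each). Tumors exceeded controls by 2.34 ± 0.28 (SE), or 5.06-fold (adjusted p = 0.00132), a call that held with any 1 array left out (2.12 to 2.68).

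Both steps on the way were near the threshold for Myc. The non-malignant samples stood 1.09 above controls, with a 95% interval from 0.45 to 1.72, and did not pass (adjusted p = 0.0805). This difference passed when only these 2 groups were fitted (adjusted p = 0.00615), without NIC Tumor 1 (0.0079) or without NIC Tumor 3 (0.0411). Tumors rose by a further 1.25 over non-malignant samples (adjusted p = 0.0432). That call ended without any 1 control, any 1 non-malignant array, NIC Tumor 2 or NIC Tumor 3, at differences of 1.03 to 1.3 (adjusted p 0.0581 to 0.17). Without NIC Tumor 1 the difference was 1.59 (adjusted p = 0.00153). With non-malignant arrays 2 and 3 averaged it was 1.23 (adjusted p = 0.166).

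**Figure D1:**
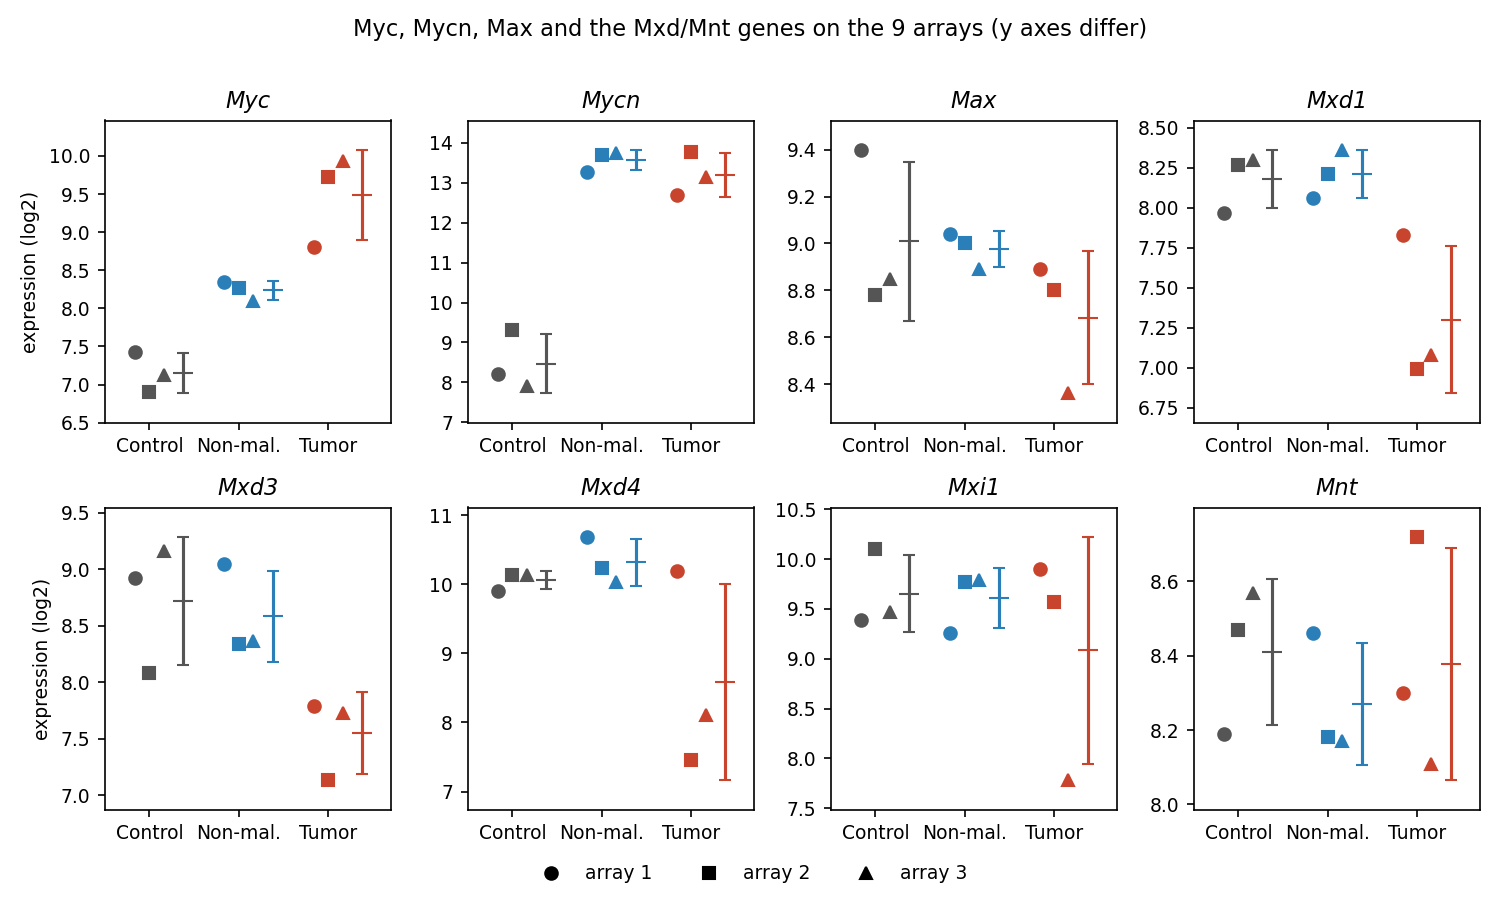
Expression of the 8 genes (y axis, log2, scale differs between panels) on each array, by group (x axis), with the group mean ± SD (n = 3) beside the points. Mycn jumps from at most 9.32 in controls to at least 12.68 elsewhere, Myc climbs in 3 separate levels, and Mxd4 is low on NIC Tumor 2 and 3 but not on NIC Tumor 1.

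On the brightest probe set of each gene and on the log2 scale, Myc and Mycn moved unequally. The within-array value of Mycn minus Myc was 0.76, 2.43 and 0.79 in controls, 4.93, 5.44 and 5.63 in non-malignant samples, and 3.87, 4.04 and 3.21 in tumors. These are differences between probe sets and say nothing of which gene is more abundant. The value was 1.63 lower in tumors than in non-malignant samples, without overlap (exact two-sided permutation test, p = 0.1, the smallest that 3 against 3 arrays allow). It was 4.01 and 2.38 above the control value in non-malignant samples and tumors (exact permutation p = 0.1 each). With the mean of all Mycn probe sets the tumor value lay below that of controls instead, by −0.81 (exact permutation p = 0.2). On that scale the non-malignant value was only 0.28 above controls, with overlapping groups (exact permutation p = 0.4), and the tumor value differed from the non-malignant one by −1.09 (exact permutation p = 0.1).

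Over the network, limma called 1 of 8 members between non-malignant samples and controls, where 3.53% of all 13288 genes tested were called. It called 4 of 8 between tumors and controls (15.7% of all genes) and 1 of 8 between tumors and non-malignant samples (4.23% of all genes). At an unadjusted p under 0.05 stood 2, 5 and 4 of the 8 members, against 13.3%, 32.2% and 25.9% of all genes. The groups did not overlap for 2, 4 and 3 of the 8 members in these comparisons, against 26.1%, 32.5% and 27.1% of all genes. In tumors against controls Myc and Mycn rose (8.49% of all genes did), Mxd1 and Mxd3 fell (7.19%), and Max, Mxd4, Mxi1 and Mnt did not pass. In tumors against non-malignant samples Myc rose (1.53%) and no member fell (2.7%).

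**Figure D2:**
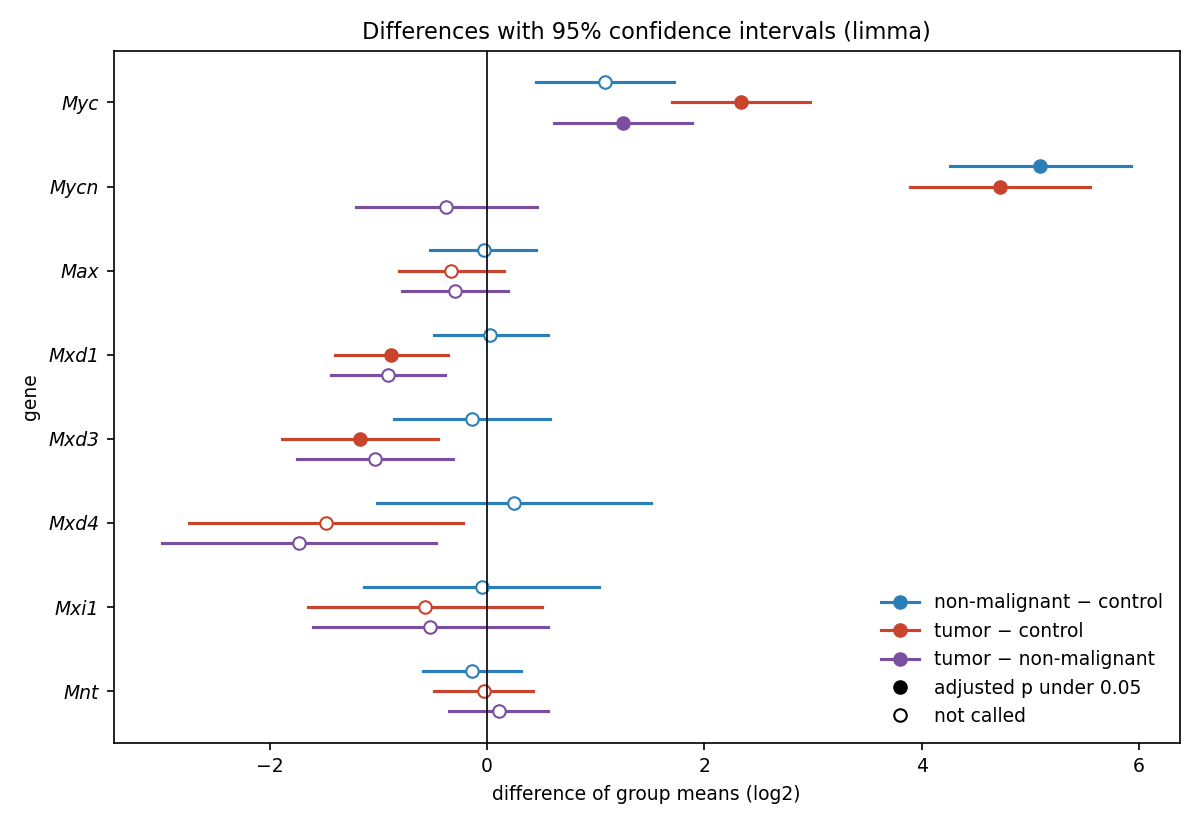
Difference of group means for each gene (x axis, log2) with its 95% confidence interval from limma, filled where the adjusted p was under 0.05. Mycn sits near 5 against controls in both groups, and the intervals of Max and Mnt cross 0 in all 3 comparisons.

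Max, the obligate partner, varied little. It read 9.4, 8.78 and 8.85 in controls, 9.04, 9 and 8.89 in the non-malignant samples and 8.89, 8.8 and 8.36 in tumors. The groups overlapped in each comparison. The difference from controls was −0.03 in non-malignant samples (95% interval −0.52 to 0.45, adjusted p = 0.992) and −0.33 in tumors (−0.81 to 0.16, adjusted p = 0.324). The intervals leave out a 2-fold difference in either direction.

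Among the repressive partners, Mxd1 and Mxd3 were lower in tumors. Mxd1 encodes a Max partner that rises as many cells differentiate. It read 7.97, 8.27 and 8.3 in controls, 8.06, 8.21 and 8.36 in the non-malignant samples and 7.83, 6.99 and 7.08 in tumors. NIC Tumor 1 was just below the lowest control, and the other tumors were well below it. Mxd1 fell by 0.88 on the log2 scale in tumors against controls (SE 0.23, adjusted p = 0.0325). The difference from non-malignant samples was −0.91 (adjusted p = 0.0588). Of the 9 fits with 1 array left out it passed only without NIC Tumor 1, at −1.18 (adjusted p = 0.00288). Its call against controls ended without any 1 control, non-malignant array 2 or 3, NIC Tumor 2 or NIC Tumor 3, at −0.98 to −0.73. The dimmer Mxd1 probe sets differed by −0.46 (1455104_at, adjusted p = 0.317) and by 0.36 (1422002_at, adjusted p = 0.186) in tumors against controls. The latter was above the 40th percentile on 3 arrays.

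Mxd3, the family member that is present in dividing rather than resting cells, read 8.92, 8.08 and 9.16 in controls. It read 9.05, 8.34 and 8.36 in non-malignant samples and 7.79, 7.13 and 7.73 in tumors. All tumors lay below all other arrays, though control 2 came close. Mxd3 fell by 1.17 (SE 0.32, adjusted p = 0.0378) against controls. The difference from non-malignant samples was −1.03 (adjusted p = 0.0971). The call ended without control 1 or 3, non-malignant array 2 or 3, NIC Tumor 2 or NIC Tumor 3, at −1.26 to −0.95. The other probe sets differed by −0.52 (1438847_at, adjusted p = 0.267) and −0.9 (1422970_at, adjusted p = 0.104). With the mean of all probe sets per gene, the differences were −0.87 for Mxd3 (adjusted p = 0.0717) and −0.33 for Mxd1 (adjusted p = 0.252).

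Mxd4 divided the tumors. It encodes a Max partner that is expressed in many resting and differentiating tissues. Controls read 9.91, 10.14 and 10.14 and non-malignant arrays 10.69, 10.24 and 10.03. NIC Tumor 1 read 10.19, within the range of those arrays, whereas NIC Tumor 2 and NIC Tumor 3 read 7.46 and 8.11. The tumor mean was 1.48 below controls and 1.73 below non-malignant samples, without passing (adjusted p = 0.106 and 0.105). Of the 9 fits with 1 array left out, only that without NIC Tumor 1 passed. There the differences were −2.28 (adjusted p = 0.000535) and −2.53 (adjusted p = 0.000638). That fit leaves out the tumor that was not low in Mxd4. In it 4234 and 3513 of all 13594 genes were called in these comparisons. Without NIC Tumor 2 the differences were −0.91 (adjusted p = 0.278) and −1.17 (adjusted p = 0.243). The next 2 probe sets by brightness showed the same split. On 1434378_a_at the tumors read 10.08, 7.31 and 7.69, against 9.62 to 10.17 in controls. On 1422574_at they read 8.23, 5.77 and 5.5, against 7.3 to 8.15 in controls. The dimmest probe set, 1422575_at, read 5.71, 5.44 and 5.48, against 5.65 to 5.96.

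NIC Tumor 1, with the highest Mxd4 of the tumors, also had their lowest Myc and highest Mxd1. With 3 tumors these are single readings.

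**Figure D3:**
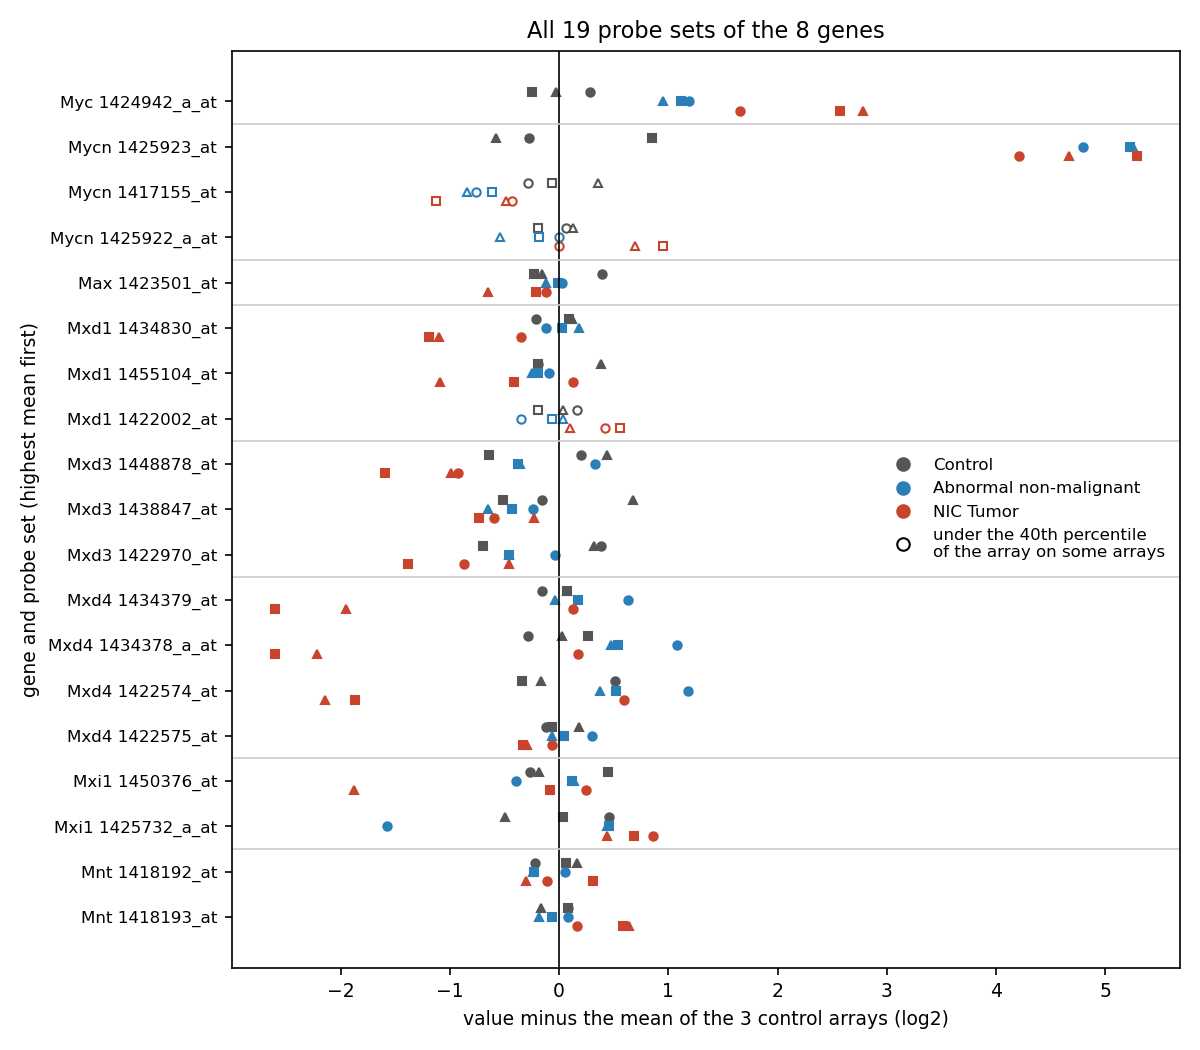
Value on each array minus the mean of the 3 controls (x axis, log2) for all 19 probe sets (y axis, gene and probe set, with circle, square and triangle for arrays 1, 2 and 3). Open symbols mark probe sets under the 40th percentile on some arrays. The bright Mycn probe set stands alone at the right, and 3 of 4 Mxd4 probe sets put NIC Tumor 2 and 3 far to the left.

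Mxi1 and Mnt did not pass in any comparison. Mxi1, a relative of Mxd1, read 9.39, 10.1 and 9.47 in controls, 9.26, 9.77 and 9.79 in the non-malignant samples and 9.9, 9.57 and 7.78 in tumors. Its tumor difference from controls was −0.57 (adjusted p = 0.436), and 0.08 without NIC Tumor 3. The other Mxi1 probe set, 1425732_a_at, did not share the low value of NIC Tumor 3 (8.05), and had its own low reading on non-malignant array 1 (6.04, against 7.12 to 8.47 on all other arrays). Mnt, the most widely expressed repressive partner, read between 8.11 and 8.72 on all arrays. It differed from controls by −0.14 in non-malignant samples and −0.03 in tumors (95% interval −0.49 to 0.42). Its dimmer probe set, 1418193_at, averaged 5.75 in controls, 5.69 in the non-malignant samples and 6.21 in tumors (tumors against controls, adjusted p = 0.103).

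Markers of other cells were read beside these values. The summed linear signal of 7 T cell markers was 37058 to 42335 in controls, 34680 to 40082 in the non-malignant samples and 22337 to 31691 in tumors. Of them Thy1, Cd5 and Lat fell in tumors (7.19% of all genes were called lower). There 4 of 7 stood at an unadjusted p under 0.05 (32.2% of all genes). Cd2 rose by 1.42 in non-malignant samples (adjusted p = 0.0072, called with any 1 array left out) and stood 0.56 above controls in tumors (adjusted p = 0.122). The 12 myeloid markers summed to 706 to 804, 1419 to 1623 and 926 to 2521. Of 10 tested, 1, Ctss, was called higher in both groups against controls (2.87% and 8.49% of all genes were). All 10 stood above controls in both, with 4 and 5 at an unadjusted p under 0.05 (13.3% and 32.2% of all genes). S100a8 and S100a9, granulocyte genes, stood 2.76 (adjusted p = 0.0837) and 2.61 (adjusted p = 0.117) above controls in non-malignant samples. Itgam and Fcgr3 were under the 40th percentile on all controls. The 5 erythroid markers summed to 334 to 366, 522 to 598 and 453 to 1536, with 0 of 4 tested called against controls by limma. Of these 4, 2 and 3 stood at an unadjusted p under 0.05 (13.3% and 32.2% of all genes). Hba-a1 was under the 40th percentile on all 9 arrays. The 6 B cell markers summed to 398 to 558, 263 to 391 and 282 to 483. Of 5 tested, 1, Cd79b, was called lower in tumors (7.19% of all genes were). The 7 thymic stroma markers summed to 752 to 930, 797 to 886 and 838 to 1265, with 0 of 5 tested called against controls (0 at an unadjusted p under 0.05). The call of Thy1 ended without any 1 control, and that of Lat without any 1 control, NIC Tumor 2 or NIC Tumor 3. That of Cd79b held only without non-malignant array 1 or NIC Tumor 3, and that of Ctss in non-malignant samples ended without control 3 or non-malignant array 2 or 3. The part of these cells in the results for Mycn, Myc, Mxd1 and Mxd3 was not tested.

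The wider network around Max gave no call with all 9 arrays. It includes Mlx, its glucose-sensing partners Mlxip (MondoA) and Mlxipl (ChREBP), the giant Max partner Mga and another Myc paralog, Mycl. Of these 5 genes, 0 passed by limma in any comparison with all 9 arrays. At an unadjusted p under 0.05 stood 1, 1 and 0 of them, against 13.3%, 32.2% and 25.9% of all genes. Mlx stood 0.62 above controls in non-malignant samples (adjusted p = 0.313). Mlxip stood 0.53 below controls in tumors (−0.53, adjusted p = 0.148). Without NIC Tumor 1, Mlxip was called lower than in controls (−0.8, adjusted p = 0.00859) and than in non-malignant samples (−0.61, adjusted p = 0.0296). Mga differed by −0.47 and −0.29 from controls, Mycl by 0.1 and 0.17, and Mlxipl by 0.01 and −0.06. Mycl averaged 5.35 to 5.52 and Mlxipl 5.3 to 5.38 over the groups, near the 40th percentile of the arrays (5.14 to 5.3). Mlxipl was above it on only 2 of 3 controls and 2 of 3 tumors. The differences of Mycl and Mlxipl therefore give no usable size. Of 2 known MondoA targets, Txnip, an inhibitor of glucose uptake, fell by 1.67 in tumors (adjusted p = 0.0232). In this comparison 7.19% of all genes were called lower. Txnip read 10.99, 11.71 and 10.59 in controls and 10.37, 9.2 and 8.71 in tumors. Its call ended without control 1, control 2, NIC Tumor 2 or NIC Tumor 3, at −2.14 to −1.31 over the 9 fits with 1 array left out. Arrdc4 differed by −0.02 there (adjusted p = 0.945).

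Several coactivators that Myc recruits were higher in tumors. Of 13 coactivator genes measured, 4 rose and 1 fell in tumors, and 1 rose in non-malignant samples. Between tumors and non-malignant samples 0 were called, with 5 at an unadjusted p under 0.05 (25.9% of all genes). The shares called among all genes were 8.49% higher and 7.19% lower in tumors, and 2.87% higher in non-malignant samples. Kat2a, the histone acetyltransferase Gcn5, averaged 8.05 ± 0.24 in controls, 8.9 ± 0.14 in the non-malignant samples and 9.62 ± 0.23 in tumors (SD, n = 3 each). It rose by 1.58 in tumors (adjusted p = 0.00132), and by 0.85 in non-malignant samples (adjusted p = 0.041), where the call ended without any 1 control or non-malignant array (0.72 to 0.94). The helicase-like ATPases Ruvbl1 and Ruvbl2, which sit in the TIP60 complex, rose by 1.19 and 1.02 in tumors (adjusted p = 0.00946 and 0.0122). Ruvbl2 lost its call without control 2, at adjusted p = 0.0502. Smarcb1, a subunit of the SWI/SNF remodelling complex, rose by 1.21 (adjusted p = 0.0419) and Ep300, the acetyltransferase p300, fell by 1.25 (adjusted p = 0.0201). The call of Ep300 ended without any 1 control, at −1.45 to −0.89 over the 9 fits. That of Smarcb1 held only without control 3 or NIC Tumor 1, at 0.82 to 1.48 over these fits. In tumors against non-malignant samples, values not passing were 0.72 for Kat2a, −1 for Ep300, 0.64 for Ruvbl2 and 0.48 for Wdr5, a reader of histone methylation.

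Corepressors that the Mxd proteins and Mnt recruit gave 1 call among 6 genes measured in tumors against controls. That share lay near the 15.7% of all genes. There 4 of 6 stood at an unadjusted p under 0.05 (32.2% of all genes). In the other comparisons limma called 0 (0 at an unadjusted p under 0.05 in non-malignant samples and 3 between tumors and non-malignant samples). Hdac3, a histone deacetylase, rose by 0.57 in tumors (adjusted p = 0.0398). That call held only without non-malignant array 1 or NIC Tumor 1, at 0.49 to 0.65 over the 9 fits. The scaffolds Sin3a and Sin3b had differences of −0.5 (adjusted p = 0.0704) and −0.79 (adjusted p = 0.0821) in tumors against controls, and Hdac1 one of −0.41 (adjusted p = 0.0846). Sin3b differed from non-malignant samples by −1.03 (adjusted p = 0.0635), Hdac3 by 0.49 and Hdac1 by −0.38. Without NIC Tumor 1, Sin3a (adjusted p = 0.0373) and Sin3b (−1.15, adjusted p = 0.0011) were called lower than in controls. Against non-malignant samples that fit called Sin3b lower (−1.4, adjusted p = 0.000879) and Hdac3 higher (adjusted p = 0.0381). It called 4234 and 3513 of all 13594 genes in these comparisons. In non-malignant samples against controls Sin3a differed by −0.34 and Sap30, a Sin3 complex subunit, by −0.39 (adjusted p = 0.529).

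Genes that set the stability of Myc protein were lower in tumors where they were called. Of 12 measured, 4 fell in tumors (7.19% of all genes did) and none rose. These 4 were also the only ones at an unadjusted p under 0.05 there, a share near the 32.2% of all genes. In the other comparisons limma called 0 (1 at an unadjusted p under 0.05 in non-malignant samples and 4 between tumors and non-malignant samples). Fbxw7, the ubiquitin ligase subunit that marks both Myc and NOTCH1 for destruction, read 8.21, 8.5 and 8.43 in controls and 8.58, 8.69 and 8.85 in non-malignant samples. It read 7.8, 7.28 and 5.73 in tumors, all below the other arrays. It fell by 1.44 against controls (adjusted p = 0.049). The difference from non-malignant samples was −1.77 (adjusted p = 0.0515). Skp2, another ligase subunit that targets Myc, fell by 1.28 (adjusted p = 0.0436). Pim1, a kinase that stabilizes Myc, fell by 1.05 (adjusted p = 0.017), and Cip2a, an inhibitor of the phosphatase that destabilizes Myc, fell by 1.13 (adjusted p = 0.0165). In non-malignant samples Pim1 differed from controls by −0.76 (adjusted p = 0.143), the kinase Aurka by −0.46 and Pim2 by 0.28. The 4 genes that fell include factors of opposite action on the protein. The call of Pim1 ended without control 3, and that of Cip2a without control 1 or 3. That of Skp2 held only without control 2, non-malignant array 1 or NIC Tumor 1, and that of Fbxw7 only without NIC Tumor 1 or NIC Tumor 3. With 1 array left out the differences ran from −1.19 to −0.82 for Pim1, −1.24 to −1 for Cip2a, −1.57 to −0.99 for Skp2 and −1.87 to −0.84 for Fbxw7.

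Genes known to be raised by Myc were higher in tumors and stood higher, mostly without passing, in non-malignant samples. Of 27 such genes, all measured, 17 rose in tumors, where 8.49% of all genes were called higher, and none fell. The median difference was 1.02, against 0.06 over all genes, and 25 of 27 were above 0. In non-malignant samples 1 of 27 rose (2.87% of all genes did), with 15 at an unadjusted p under 0.05 (13.3% of all genes), a median of 0.5 against 0.01, and 24 above 0. Between tumors and non-malignant samples 3 rose (1.53% of all genes were called higher), with a median of 0.61 against 0.03. The list was chosen with earlier results of these data known, so its direction is no independent evidence.

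Of the 17 genes raised in tumors, 12 kept the call with any 1 array left out. They were Srm, Cad, Fbl, Bop1, Gnl3, Cdk4, Ldha, Nme1, Polr1b, Hspd1, Shmt2 and Apex1. Srm, which makes spermidine, read 8.25, 7.61 and 8.09 in controls, 9.25, 9.18 and 9.18 in the non-malignant samples and 9.69, 10.98 and 10.92 in tumors. Like Myc it formed 3 separate levels, with NIC Tumor 1 the lowest tumor. It rose by 2.55 in tumors (adjusted p = 0.00163), and its 1.22 in non-malignant samples did not pass (adjusted p = 0.089). Cad, the enzyme that opens pyrimidine synthesis, rose by 2.38 in tumors (adjusted p = 0.00247) and by 1.38 over non-malignant samples (adjusted p = 0.0493). Ldha, the lactate dehydrogenase subunit whose promoter is printed above, read 11.45, 11.36 and 11.54 in controls, 11.92, 12.01 and 11.92 in the non-malignant samples and 12.32, 12.38 and 12.55 in tumors. It was called in all 3 comparisons, at 0.5, 0.97 and 0.47 (adjusted p = 0.0362, 0.00103 and 0.0475), although in non-malignant samples the call held only without NIC Tumor 1 or NIC Tumor 3. Apex1, a DNA repair endonuclease, rose by 1.27 in tumors (adjusted p = 0.0036), and Polr1b, a subunit of RNA polymerase I, by 1.2 (adjusted p = 0.00875) and by 0.95 over non-malignant samples (adjusted p = 0.046). Among the genes with E-boxes printed above, Hspd1, a mitochondrial chaperonin, rose by 1.24, Cdk4, a kinase of the G1 phase, by 1.17 and Nme1, a nucleoside diphosphate kinase, by 1.02. Not all textbook targets followed: Odc1, the ornithine decarboxylase, differed by −0.07 in tumors (adjusted p = 0.81), and Ccnd2, cyclin D2, by 0.18 (adjusted p = 0.679).

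Between tumors and non-malignant samples the calls of Ldha and Polr1b held only without NIC Tumor 1, and that of Cad only without control 2 or NIC Tumor 1. Srm differed there by 1.33 (adjusted p = 0.0536). In non-malignant samples against controls Hspd1 stood 0.73 higher (adjusted p = 0.082) and Shmt2, a mitochondrial enzyme of one-carbon metabolism, 1.2 higher (adjusted p = 0.105). The smaller counts rested on which arrays entered. The count in non-malignant samples was 0 without NIC Tumor 2 or any 1 array of the other groups, and 5 without NIC Tumor 1. It was 6 with only these 2 groups in the fit. The count between tumors and non-malignant samples was 14 without NIC Tumor 1, 1 without control 2 and 0 without any 1 of the other arrays. The count in tumors against controls ran from 12 to 19 over the 9 fits.

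**Figure D4:**
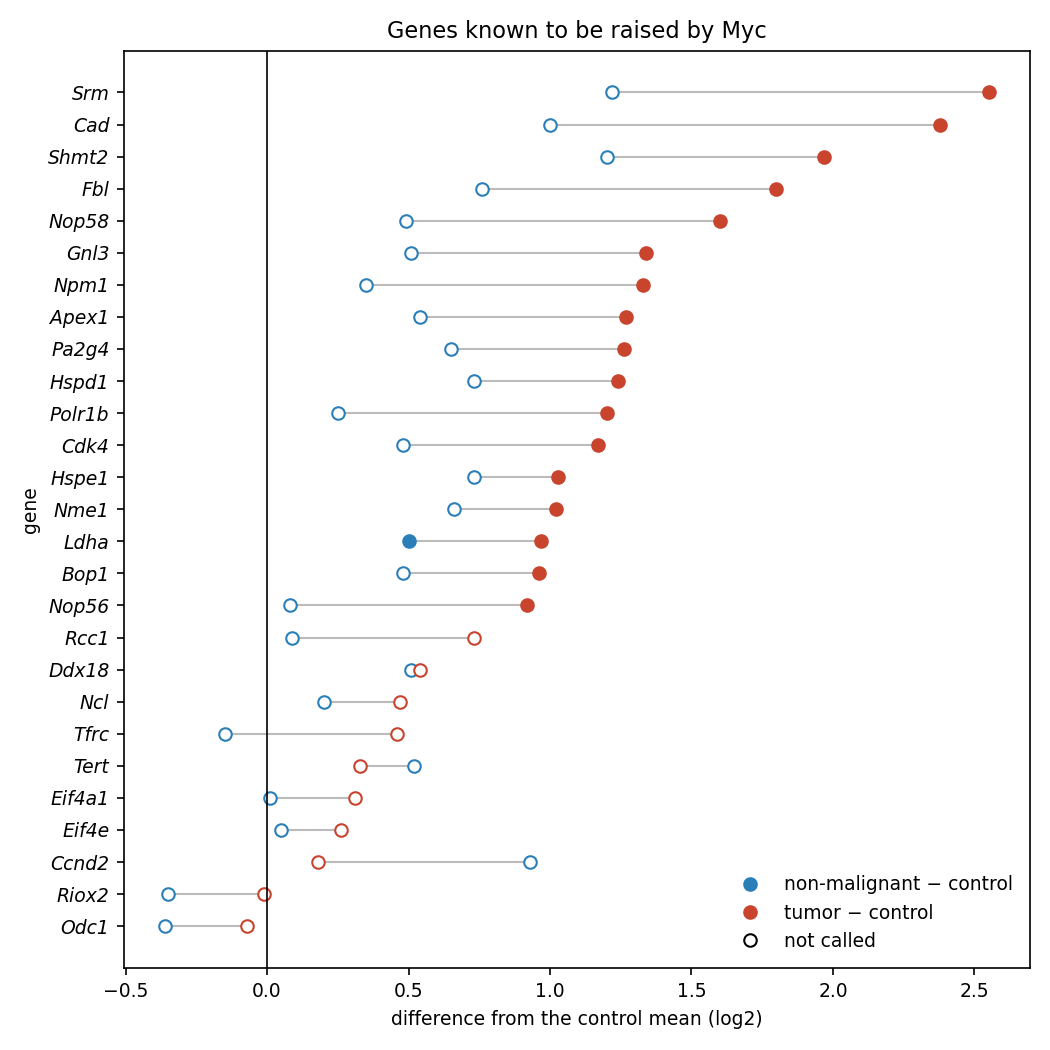
Difference from the control mean (x axis, log2) of 27 genes known to be raised by Myc (y axis), in non-malignant samples (blue) and tumors (red), filled where called by limma. The red points lie to the right of the blue ones for most genes, from Srm at 2.55 down to Odc1 at −0.07, while Ccnd2 and Tert lie the other way.

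Genes known to be lowered by Myc, many through the Myc partner Miz1, gave no fall that passed with all 9 arrays. Of 10 measured, 5 stood at an unadjusted p under 0.05 in tumors against controls (32.2% of all genes did). The 1 gene called there rose (8.49% of all genes did): Pdgfrb, a growth factor receptor, by 1.4 (adjusted p = 0.0125). Its call ended without control 2, at 1.04 to 1.64 over the 9 fits. Pdgfrb was under the 40th percentile on 1 of 3 controls. In the other comparisons limma called 0 (3 and 2 at an unadjusted p under 0.05, against 13.3% and 25.9% of all genes). The cell cycle inhibitor Cdkn1b read 10.65, 10.63 and 11.05 in controls and 10.53, 9.1 and 8.12 in tumors, a difference of −1.53 (adjusted p = 0.059). Its NIC Tumor 1 value lay near the controls, as for Mxd4. Without NIC Tumor 1, 3 of the 10 genes were called lower in tumors against controls. They were Cdkn1b at −2.17 (adjusted p = 0.000919), Gadd45a at −1.76 (adjusted p = 0.00226) and Ndrg1, a differentiation-associated gene, at −0.78 (adjusted p = 0.0138). That fit called 4234 of all 13594 genes in either direction. It also called Cebpa of this list higher, at 1.74 (adjusted p = 0.0341), and Pdgfrb stayed called higher. Cebpa read 5.62, 5.64 and 5.57 in controls and 5.77, 6.2 and 8.49 in tumors, so most of its difference came from NIC Tumor 3. Over the 9 fits with 1 array left out it ran from 0.38 to 1.74. Cdkn1a differed by −0.59 in tumors (adjusted p = 0.136) and −0.8 in non-malignant samples (adjusted p = 0.149). Cdkn1c differed by −0.5 (adjusted p = 0.133) and Gadd45a, a stress response gene, by −1.1 in tumors (adjusted p = 0.152). Between tumors and non-malignant samples Pdgfrb differed by 1.07 (adjusted p = 0.0648), and Ndrg2, a stress and differentiation gene, by 0.38 (adjusted p = 0.203).

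The genes whose pattern over the 9 arrays was most like that of each Myc gene were ranked by Pearson correlation among 2818 genes with an SD of at least 0.5. The arrays form 3 groups, so these values mostly compare group levels and are given as a description. The genes were picked on the same 9 arrays, so the calls given for them follow largely from that choice. For Myc they were Pum3 (r = 0.998), Srm (0.995), Nhp2 (0.993), Fam136a (0.992) and Ece2 (0.991). All 5 were called higher in tumors against controls, by 1.61, 2.55, 1.96, 1.9 and 1.37. For Mycn they were B4galt5 (r = 0.983), Irf4 (0.98), Prr13 (0.979), the MHC class I heavy chain H2-K1 (0.975) and Hdgfl3 (0.975). All 5 were called higher in both groups against controls. Irf4, a lymphocyte transcription factor, rose by 3.69 in non-malignant samples and 2.84 in tumors.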

How the data were processed

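The deposited table holds log2 values for 45101 Affymetrix probe sets on 9 arrays, 1 per sample, normalized by the authors. That they are base 2 was inferred from their range (2.68 to 14.57). Per the labels' protocols, TRIZOL and RNeasy RNA was amplified to biotinylated cRNA. How background was corrected and arrays normalized is not given in the sources used here. Array CGH and karyotyping were not analysed here.

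By GEO's platform annotation 34945 probe sets have 1 symbol, 932 several and 9160 none, beside 64 array controls. Those with 1 were used, and 34741 of them were named through Entrez IDs. A gene's level is its probe set with the highest mean over the 9 arrays, and a gene was tested if that exceeded the 40th percentile of all values on 3 or more arrays (13288 genes). With Python 3.11.15, pandas 2.3.3, R 4.3.3 and limma 3.58.1, 1 mean per group was fitted with a variance trend (6 residual and 3.6 prior degrees of freedom). Genes were called at a Benjamini-Hochberg adjusted p under 0.05 over all genes. The fit was tested on simulated data. Named were all 8 members, all genes of lists of up to 5, the 4 smallest adjusted p per comparison in longer lists, and the 5 genes most like Myc and Mycn. Others (Odc1, Ccnd2, Cdk4 and Nme1 among them) were named after their values were seen. Members and lists were chosen with earlier results of these data known. Some list entries are not reported here. In all, 22 alternative settings were tried, 9 of which left out 1 array. The number of arrays limits the precision.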

Additional observations from a re-analysis of the deposited data

How the results depend on the processing

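The rise of Mycn in both groups and of Myc in tumors was called in all 22 alternative settings. All of these settings use the bright Mycn probe set, alone or in the mean. With 1 array left out Mycn stood at 4.81 to 5.52 and 4.43 to 5.14, and Myc at 2.12 to 2.68. The difference in Mycn minus Myc ran from 3.73 to 4.56 (non-malignant against control), 2.1 to 2.93 (tumor against control) and −1.83 to −1.38 (tumor against non-malignant) with 1 array left out. It was −0.81 for tumor against control with the mean of probe sets, where the dim Mycn probe sets count, 0.28 for non-malignant against control and −1.09 for tumor against non-malignant. Myc in non-malignant samples (0.96 to 1.23 with 1 array left out) passed with array weights (0.97) and with only 2 groups fitted (1.09). Myc in tumors over non-malignant samples (1.03 to 1.59 with 1 array left out) did not pass with no filter, every probe set, 2 groups only, the replicate block or a threshold of 0.01 (1.25 in each), nor with non-malignant arrays 2 and 3 averaged (1.23).

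The labels do not say whether the replicate numbers pair the samples, and the check made cannot settle it with so few arrays. Deviations of same-numbered arrays correlated at −0.05 to 0.22 (median 0.07). Those of arrays with unlike numbers correlated at −0.26 to 0.21 (median −0.04). Not every array correlated best with its own number. With the replicate block, 287 genes were called between tumors and non-malignant samples, 1 member fell in tumors against controls, 0 members rose between tumors and non-malignant samples, and the raised Myc targets numbered 0 in non-malignant samples and 1 between tumors and non-malignant samples.

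Genes called between non-malignant samples and controls numbered 469, and 2420 with array weights, 1114 with 2 groups only, 218 with arrays 2 and 3 averaged, 233 at a threshold of 0.01 and 211 to 715 with 1 array left out. Between tumors and controls there were 2084, and 4884 with array weights, 859 with 2 groups only, 584 at 0.01 and 931 to 4234 with 1 array left out. Between tumors and non-malignant samples there were 562, and 283 with every probe set, 5698 with array weights, 108 with 2 groups only, 71 with arrays averaged, 83 at 0.01 and 61 to 3513 with 1 array left out. Members that rose in non-malignant samples numbered 2 with array weights or 2 groups only, and 1 to 2 with 1 array left out. Members that rose between tumors and non-malignant samples numbered 2 with array weights and 0 with no filter, every probe set, 2 groups only, arrays averaged or 0.01 (0 to 1 with 1 array left out). Members that fell in tumors against controls numbered 0 with the mean of probe sets, 2 groups only, arrays averaged or 0.01 (0 to 3 with 1 array left out), and against non-malignant samples 1 with the 60th percentile, 3 with array weights and 0 to 3 with 1 array left out. Raised Myc targets in non-malignant samples numbered 0 with quantile normalization, no filter, no variance trend, arrays averaged or 0.01, 3 with the mean of probe sets, 16 with array weights, 6 with 2 groups only and 0 to 5 with 1 array left out. Between tumors and non-malignant samples they numbered 1 with median scaling or 2 groups only, 0 with no filter, every probe set, arrays averaged or 0.01, 18 with array weights and 0 to 14 with 1 array left out. The cause of these shifts was not tested. Among the members, calls other than Mycn and Myc against controls ended without some single arrays, and probe sets near background give no usable size.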

Other observations

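E-box promoters were also set against all others across the tested genes. Of the 1183 genes with CACGTG in the promoter window, 11.8% were called higher in tumors against controls, and of the 9524 without it 8.35% were. The shares called lower were 7.19% and 7.24%. In tumors against non-malignant samples 3.04% and 1.44% were called higher, and 1.78% and 2.67% lower. In non-malignant samples against controls 2.96% and 2.83% were called higher, and 0.93% and 0.64% lower. The median differences of genes with and without the motif were 0.07 and 0.06 in tumors and 0.02 and 0.01 in non-malignant samples. The motif holds a CpG, and promoters with and without it were not matched for base composition, so these shares are a description.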
